A study of Mus musculus with 2 samples.

Results

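The genes that make, carry, sense and degrade retinoic acid were followed over the cell types of the mouse glomerulus, the filtering unit of the kidney. The set held 9 genes taken by symbol (Aldh1a1, Aldh1a2, Dhrs3, Stra6, Crabp2, Rara, Rarb, Rarg and Cyp26b1), and all 9 were found among the 31058 entries of the feature list of both matrices. Glomerular cells of 2 healthy C57Bl/6 mice had been profiled by droplet single-cell RNA sequencing of transcript 3′ ends, 1 library per mouse, and the titles call one mouse female and the other male. Both mice carried the genotype Pax2.rtTA;TetO.Cre;R26.Confetti, received doxycycline at 19 days of age and were killed at 30 days, so the induced Confetti reporter, switched through the Pax2 promoter, is common to both groups. The series' design text calls the mice wild type, and there was no uninduced or non-transgenic group.

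The library titled female held 5233 barcodes and 67648465 unique molecular identifiers (UMIs, each standing for 1 captured RNA molecule), and the one titled male held 4974 barcodes and 57841860 UMIs. The sex-linked transcripts went against the titles: Xist was at 0.682 CPM (UMIs of the gene per 1000000 UMIs of the group) in the library titled female and 1593 CPM in the one titled male, so libraries are named by title only and no direction is drawn for sex. The libraries shared 10 barcodes. After filters, 4909 and 4442 cells were left, and cells were typed by marker genes with the retinoid genes kept out of the clustering. The classes, each to be read as "-like", held 3672 and 3180 podocytes (in the order female-titled, male-titled, used throughout), 75 and 49 parietal cells, 241 and 176 mesangial cells, and 111 and 89 glomerular endothelial cells. Podocytes had 12 of 12 podocyte markers at 50 CPM or more, and parietal cells 9 and 8 of 10 parietal markers. Mesangial cells had 7 of 9 and glomerular endothelial cells 10 of 11 of their own markers. Clusters were named by these same markers with this limit, so the counts are no separate check. Podocyte markers also passed it in other classes, with 11 of 12 in mesangial, 10 and 7 in parietal and 5 and 4 in glomerular endothelial cells. Parietal cells passed it for 5 of 9 smooth muscle or renin markers.

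Retinol enters a cell through the receptor Stra6 and is oxidised to retinaldehyde by retinol dehydrogenases such as Rdh10, a step that Dhrs3 runs in reverse. Retinaldehyde dehydrogenases of the Aldh1a family then make retinoic acid irreversibly, Crabp2 carries it to the nucleus, and the receptors Rara, Rarb and Rarg act on target genes as partners of the retinoid X receptors. Cyp26 enzymes hydroxylate retinoic acid for removal, so a cell that holds them limits its own exposure, and in the glomerulus retinoic acid is known as a promoter of podocyte differentiation.

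Retinoic acid receptors bind paired short sites (AGGTCA or AGTTCA or GGGTCA or GGTTCA), and the direct repeat with 5 bases between the sites is called DR5. This repeat was looked for on both strands of RefSeq promoter windows of the GRCm38.p6 build, because the sensing and breakdown genes are themselves textbook targets of retinoic acid. Windows were found for 8 of the 9 genes. A DR5 stood in 32 of 32851 promoter windows of all genes (0.0974%), among them Rarb and Cyp26a1, a family member of Cyp26b1. The Rarb site is shown with its flanks (minus strand, chr14:16575507-16575535), and the other lines give the stretch ahead of the first annotated exon of Cyp26a1 (plus strand, chr19:37697558-37697797), of Cyp26b1 (minus strand, chr6:84593909-84594060) and of Aldh1a2 (plus strand, chr9:71215539-71215788), the main breakdown and synthesis genes of these data. Capitals mark the DR5, which in Cyp26a1 reads on the opposite strand.
Rarb: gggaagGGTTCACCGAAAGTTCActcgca
Cyp26a1: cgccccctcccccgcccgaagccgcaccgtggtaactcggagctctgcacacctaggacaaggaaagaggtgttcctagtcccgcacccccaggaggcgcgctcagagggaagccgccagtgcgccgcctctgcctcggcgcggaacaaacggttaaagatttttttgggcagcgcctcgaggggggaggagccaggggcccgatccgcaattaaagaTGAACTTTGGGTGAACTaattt
Cyp26b1: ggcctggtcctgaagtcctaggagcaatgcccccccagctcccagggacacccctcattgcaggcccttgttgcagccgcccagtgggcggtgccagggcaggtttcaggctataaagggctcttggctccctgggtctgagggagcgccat
Aldh1a2: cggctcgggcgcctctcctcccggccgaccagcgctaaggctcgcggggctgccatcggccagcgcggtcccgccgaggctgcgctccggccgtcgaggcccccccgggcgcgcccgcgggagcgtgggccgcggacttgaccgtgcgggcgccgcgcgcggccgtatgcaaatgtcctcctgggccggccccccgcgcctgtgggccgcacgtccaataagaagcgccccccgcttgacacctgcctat
The Rarb repeat lay 53 to 37 bases before the start site of its window and joined the sites GGTTCA with AGTTCA. That start site is inside the annotated span of the gene (chromosome 14, 16430839 to 16819156), and annotated exons cover all 250 bases ahead of it. The Cyp26a1 repeat lay 32 to 16 bases before the start site of its own window. The windows of Cyp26b1 and Aldh1a2 held no such letters, nor did repeats with 1 or 2 bases between the sites (DR1 in 0.222% and DR2 in 0.268% of all windows) occur in any of the 18 windows of the 8 genes. A match describes letters only.

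The 4 glomerular classes differed widely over the transcriptome, and the retinoid genes have to be read against that. UMIs were summed per library and class, giving 8 sums, and each of the 6 pairs of classes was tested with edgeR's quasi-likelihood test with library as a block over 11494 genes (Benjamini-Hochberg adjusted over all genes and pairs, called under 0.05). Of the 9 genes, 6 passed the filter on low counts. Aldh1a1, Crabp2 and Stra6 did not. Among those 6, all but Rarb were called in at least 1 pair (5 of 6), where 81.3% of all tested genes were. Between podocyte and parietal cells 5 genes were called, where 50% of all genes were, and all 5 were higher in parietal cells, a direction in which 27% of all genes were called (23% were higher in podocytes). The podocyte to mesangial pair gave 5 calls against a background of 53% (27.6% higher in podocytes, 25.4% in mesangial cells), and the podocyte to glomerular endothelial pair 5 against 53.1% (26.5% each way), with Aldh1a2 alone higher in podocytes and 4 genes higher in the other class in both. There were 4 calls between parietal and mesangial cells, 2 each way, where 43.3% of all genes were called (23.1% higher in parietal, 20.2% in mesangial cells). Between parietal and glomerular endothelial cells 4 were called, 1 higher in parietal and 3 in glomerular endothelial cells, where 44.5% of all genes were (23.5% and 21%). Between mesangial and glomerular endothelial cells 3 were called, 1 higher in mesangial and 2 in glomerular endothelial cells, where 35% of all genes were (17.6% and 17.4%). The median log2 difference of the 6 tested genes was -1.55 for podocyte over parietal, -2.10 for podocyte over mesangial and -2.01 for podocyte over glomerular endothelial cells, where the median of all genes was 0.027, 0.089 and 0.085. Each of the 2 libraries gives 1 sum per class, so the p-values rest on how class differences varied between 2 mice. The quasi-likelihood fit also draws the spread of each gene towards that of all genes.

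Among the 4 glomerular classes, Aldh1a2 was highest in parietal cells, the flat epithelium that lines Bowman's capsule. This retinaldehyde dehydrogenase, which makes most retinoic acid in the embryo (chromosome 9, 71215789 to 71296243, plus strand), was at 125 CPM in parietal cells of the library titled female and 157 CPM in those of the library titled male. In podocytes it stood at 18.8 and 20.8 CPM, in mesangial cells at 7.59 and 18.8 CPM, and in glomerular endothelial cells at 1 UMI (0.731 CPM) and 0 UMIs. Both parietal sums were above all 6 sums of the other classes. Parietal cells exceeded podocytes by 2.63 ± 0.18 (SE) on the log2 scale, edgeR adjusted p = 6.3e-06, with 6.64-fold (95% interval of counting error 5.71 to 7.70) and 7.56-fold (6.28 to 9.04) in the single libraries. They exceeded mesangial cells by 3.50 ± 0.25, adjusted p = 8.8e-06. Against glomerular endothelial cells the parietal level was 170-fold higher (30.3 to 6760) in the first library, with 1 UMI in the lower class, and at least 36.0-fold higher in the other, against a floor of 3 UMIs per library.

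An Aldh1a2 UMI was held by 78.7% of parietal cells (exact 95% interval 67.7 to 87.3) and 79.6% (65.7 to 89.8), and by 17.8% and 17.3% of podocytes. After every cell was thinned to 3000 UMIs, the parietal shares were 33.3% and 38.8% and the podocyte shares 4.63% and 5.79%. The podocyte excess over mesangial cells was called (0.87 ± 0.26 on the log2 scale, edgeR adjusted p = 0.025) but rested on the library titled female, with a fitted log2 difference of 1.59 there and 0.34 in the one titled male. That call was lost with DESeq2, at a clustering resolution of 0.5 and with thinned cells (log2 difference 0.77, 0.76 and 0.73). Free podocyte RNA reached every class, since the podocyte genes Nphs1, Synpo and Thsd7a stood at 13.9% to 22.0% (library titled female) and 5.98% to 11.7% (titled male) of their podocyte level in mesangial cells, and at 4.14% to 8.15% and 2.32% to 5.15% in parietal cells. Its part in the low mesangial Aldh1a2 counts was not tested.

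**Figure D1:**
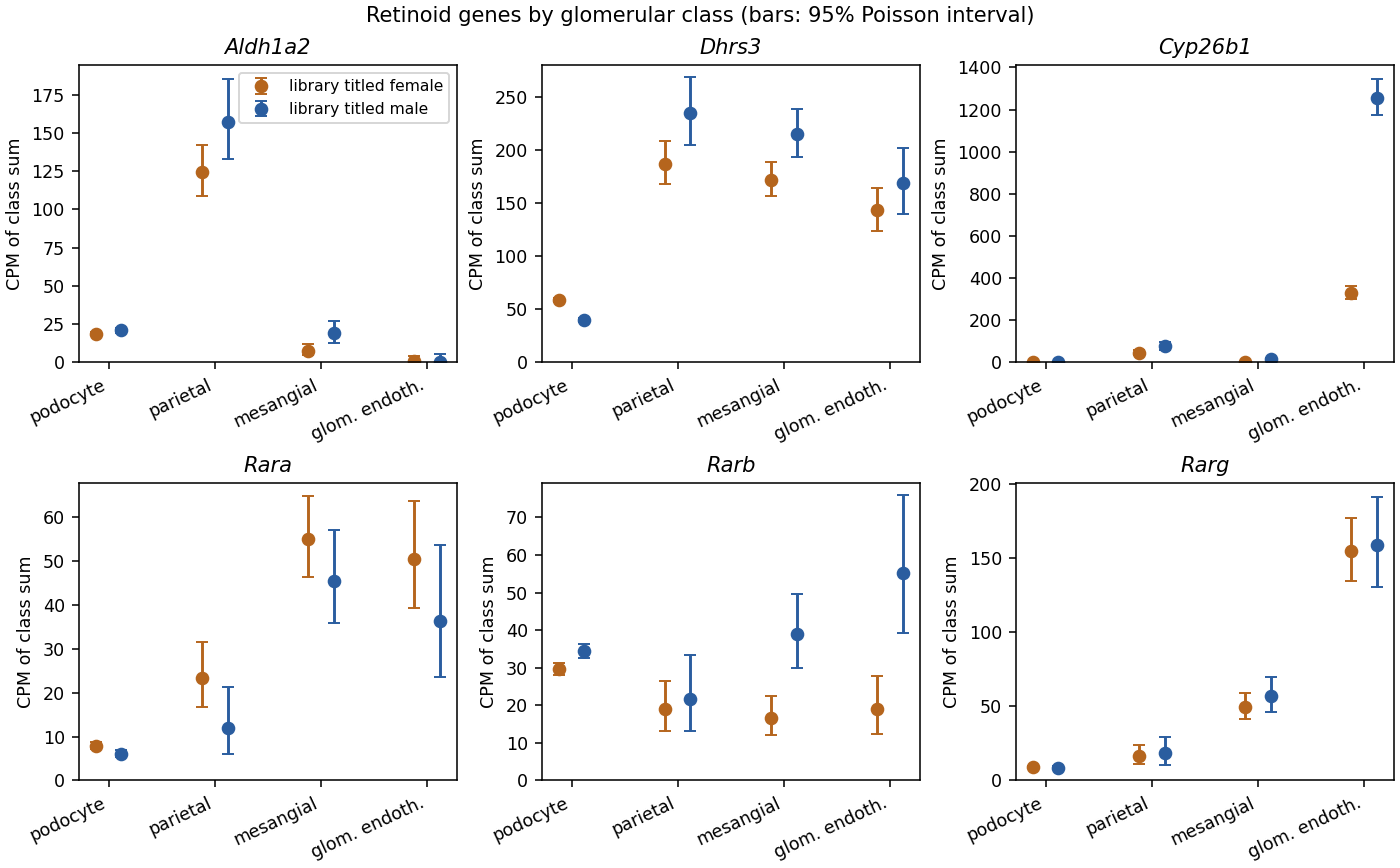
Level of 6 retinoid genes (y axis, CPM of the class sum) in podocyte, parietal, mesangial and glomerular endothelial cells (x axis), with 1 point per library and bars for the exact 95% Poisson interval of counting error. Aldh1a2 peaks in parietal cells (125 and 157 CPM), Cyp26b1 and Rarg peak in glomerular endothelial cells, and Dhrs3 is lowest in podocytes.

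Beyond those 4 classes, Aldh1a2 was also seen in a cluster led by Cst12 and Igfbp6 that carried all 12 podocyte markers at 50 CPM or more and 4 of 10 parietal markers, and that was left without a cell type name. Its 111 and 74 cells had Aldh1a2 at 46.0 and 33.8 CPM, between the podocyte and the parietal level in both libraries. Aldh1a1, a second retinaldehyde dehydrogenase, was scarce, with 10 and 4 UMIs in parietal cells (5.56 and 4.34 CPM), 18 and 6 in the Cst12-led cluster (10.6 and 6.34 CPM) and 4 in podocytes of each library (0.0860 and 0.113 CPM). Glomerular endothelial cells had no Aldh1a1 UMI, which, counting 0 as up to 3, allows a share of cells with a UMI of up to 3.37% in the library with fewer of them. The third family member, Aldh1a3, stood at 30.1 and 19.0 CPM in the Cst12-led cluster and at most 5.70 CPM in the 4 glomerular classes.

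The retinol dehydrogenases, one step before synthesis, differed in where they were highest. Rdh10, the retinol dehydrogenase that sets the supply of retinaldehyde in the embryo, was at 70.1 and 50.9 CPM in parietal cells and between 8.73 and 20.5 CPM in the 3 other classes. It was called higher in parietal cells than in podocytes (2.08 ± 0.19 on the log2 scale, edgeR adjusted p = 3.3e-05), mesangial cells (1.85 ± 0.23) and glomerular endothelial cells (2.49 ± 0.31). Podocytes had a different dehydrogenase in Rdh1, at 92.2 and 96.6 CPM, against no more than 14.4 CPM in the 3 other classes, and all 3 podocyte contrasts were called. Rdh14, at 36.1 and 40.2 CPM in podocytes and 24.5 to 29.3 CPM in the other 3 classes, was also called higher in podocytes than in each of them.

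Dhrs3, the reductase that returns retinaldehyde to retinol (chromosome 4, 144892827 to 144928209, plus strand), was the member held most widely. Its level was 187 and 235 CPM in parietal cells, 172 and 215 CPM in mesangial cells, 143 and 169 CPM in glomerular endothelial cells and 58.6 and 39.8 CPM in podocytes. Podocytes were below the 3 other classes in both libraries, by 1.89 ± 0.22, 1.79 ± 0.22 and 1.52 ± 0.23 on the log2 scale in that order, with edgeR adjusted p of 0.00017, 0.00021 and 0.00078. The 3 other classes could not be ranked, since their differences were 0.10 to 0.37 on the log2 scale with adjusted p from 0.24 to 0.74, and the sign of the parietal to mesangial difference turned under 6 of the alternatives. Mesangial cells were called above glomerular endothelial cells only at a clustering resolution of 0.5, where arterial cells join the latter class (log2 difference 0.89). In podocytes themselves the library titled female was 1.47-fold higher (1.38 to 1.57), the reverse of the order in the 3 other glomerular classes.

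Uptake and carriage by Stra6 and Crabp2 was close to the limit of detection. Stra6 gave 3 and 2 UMIs in parietal cells, 0 and 1 in podocytes and none in mesangial or glomerular endothelial cells. Crabp2 gave 2 UMIs in podocytes of the library titled female, 1 in parietal cells of the one titled male and none elsewhere in the 4 classes. By the same limit of 3 counts, podocytes with a UMI could be up to 0.0817% for Stra6 in the library titled female and up to 0.0943% for Crabp2 in the one titled male. The other carrier of retinoic acid to nuclear receptors, Fabp5, which also binds fatty acids, was at 254 and 263 CPM in glomerular endothelial cells, at 14.5 and 16.2 CPM in podocytes and at most 7.89 CPM in parietal and mesangial cells. The glomerular endothelial excess over podocytes was 3.96 ± 0.11 on the log2 scale, edgeR adjusted p = 4.3e-08.

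The 3 retinoic acid receptors had 3 different distributions. Rarg (chromosome 15, 102234938 to 102257517, minus strand) was ordered glomerular endothelial (155 and 159 CPM), mesangial (49.7 and 57.1), parietal (16.7 and 18.4) and podocyte (8.92 and 8.72), and each of its 6 class pairs was called. Each step of that order was larger than the gap between libraries, with glomerular endothelial over mesangial cells at 1.61 ± 0.13, mesangial over parietal cells at 1.62 ± 0.19 and parietal over podocytes at 0.79 ± 0.20 on the log2 scale. The smallest step had an edgeR adjusted p of 0.011 and was lost with thinned cells and without cells that carried markers of another class (log2 difference of podocyte over parietal -0.80 and -0.51).

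Rara (chromosome 11, 98927818 to 98974942, plus strand) was highest in mesangial cells (55.1 and 45.5 CPM) and glomerular endothelial cells (50.4 and 36.4 CPM), which did not differ beyond their spread (0.16 ± 0.19 on the log2 scale, edgeR adjusted p = 0.54) but were called at a clustering resolution of 0.5 (0.48). Parietal cells followed at 23.4 and 11.9 CPM, from 42 and 11 UMIs, and podocytes at 7.91 and 6.11 CPM. The parietal level was below the mesangial by 1.46 ± 0.21 (adjusted p = 0.00053) and above the podocyte by 1.20 ± 0.22 (adjusted p = 0.0023) on the log2 scale. The second difference was 1.24 in the library titled female and 0.71 in the one titled male, and neither call was kept with thinned cells (log2 difference -1.36 for parietal over mesangial, -1.38 for podocyte over parietal).

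Rarb (chromosome 14, 16430839 to 16819156, minus strand), whose promoter site is printed above, was the tested member with no called difference in the main fit. Podocytes had 29.7 and 34.4 CPM, parietal cells 18.9 and 21.7 CPM, mesangial cells 16.7 and 38.9 CPM and glomerular endothelial cells 19.0 and 55.3 CPM. The groups of 2 sums overlapped for each pair of classes but podocyte and parietal, where podocytes were 1.57-fold (1.12 to 2.28) and 1.59-fold (1.02 to 2.61) higher. That difference was 0.83 ± 0.34 on the log2 scale with an edgeR adjusted p of 0.074, and it passed the threshold under 6 of the alternatives, with 0.82 to 1.24. With no filter on low counts, Rarb was also called for parietal over glomerular endothelial cells (log2 difference -0.773) and for podocyte over mesangial cells (0.555).

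Seen per class, the receptor transcripts therefore had a different make-up. Rarb gave 63.8% and 69.9% of all RAR UMIs in podocytes, and Rarg gave 69.1% and 63.4% in glomerular endothelial cells. In mesangial cells Rara gave 45.3% and 32.2% and Rarg 40.9% and 40.3%. Parietal cells, with 106 and 48 RAR UMIs in all, had Rara at 39.6% and 22.9%, Rarb at 32.1% and 41.7% and Rarg at 28.3% and 35.4%. The summed RAR level was 46.5 and 49.3 CPM in podocytes, 58.9 and 52.0 in parietal, 122 and 141 in mesangial and 224 and 250 in glomerular endothelial cells, an order seen in both libraries, with podocyte and parietal cells close to each other. A RAR UMI was held by 41.4% and 38.8% of podocytes and by 82.9% and 80.9% of glomerular endothelial cells, although the median cell of the first class had more UMIs (11028 and 10036 against 7960 and 6417).

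**Figure D2:**
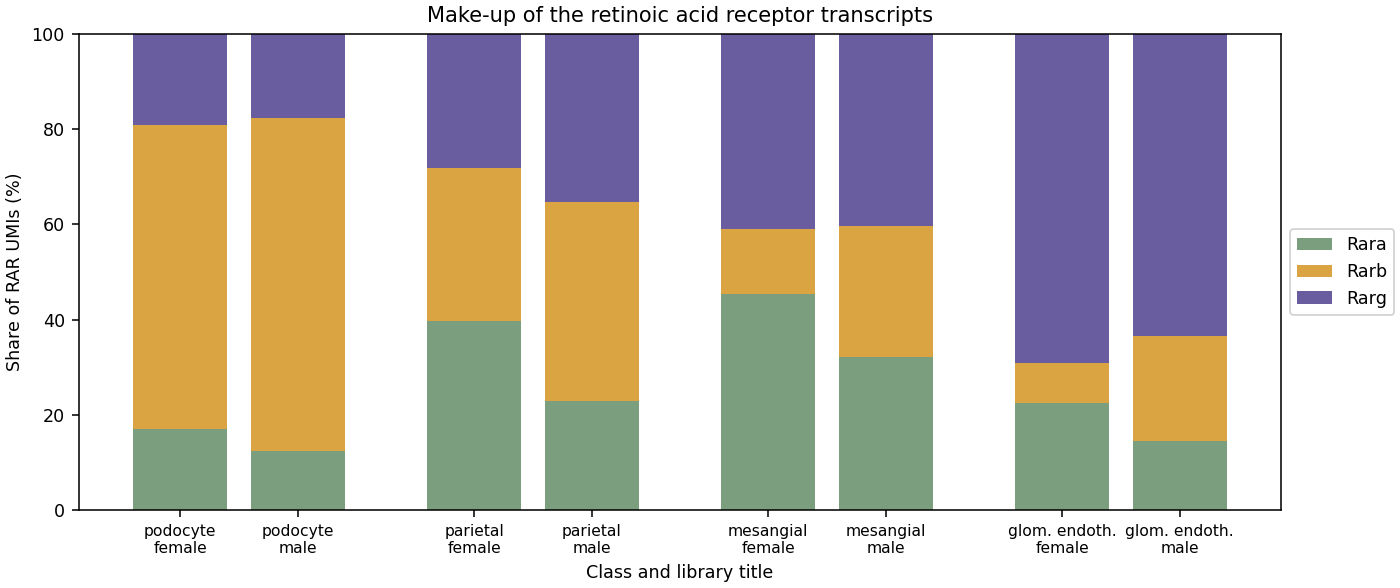
Share of the RAR UMIs of each class (y axis, percent) that came from Rara, Rarb and Rarg, with 1 stacked bar per class and library title (x axis). Rarb takes the largest part in podocytes (63.8% and 69.9%) and Rarg in glomerular endothelial cells (69.1% and 63.4%).

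Of the partner receptors, Rxra was highest in mesangial cells (46.3 and 49.8 CPM) and lowest in podocytes (9.50 and 7.93 CPM), and 5 of its 6 class pairs were called. Rxrb ranged from 18.4 to 36.4 CPM with no pair called, and the corepressor Ncor1 (304 to 380 CPM) also had none. Nrip1, a cofactor that binds liganded RARs, was lowest in glomerular endothelial cells (71.6 and 48.0 CPM) and was called against each of the 3 other classes.

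The breakdown gene had the widest range among the 6 tested members. Cyp26b1, which hydroxylates retinoic acid (chromosome 6, 84571414 to 84593908, minus strand), was at 329 CPM (450 UMIs) in glomerular endothelial cells of the library titled female and at 1257 CPM (864 UMIs) in those of the library titled male. Parietal cells had 45.6 CPM (82 UMIs) and 77.0 CPM (71 UMIs), mesangial cells 0.380 CPM (1 UMI) and 13.4 CPM (22 UMIs), and podocytes 0.0430 CPM (2 UMIs) and 0.141 CPM (5 UMIs). The glomerular endothelial and the parietal sums stood above all sums of the classes ranked after them. Glomerular endothelial cells exceeded parietal cells by 3.50 ± 0.35 on the log2 scale (edgeR adjusted p = 6.0e-05), 7.21-fold (5.69 to 9.24) and 16.3-fold (12.8 to 21.1) in the single libraries, and parietal cells exceeded mesangial cells by 3.54 ± 0.52 (adjusted p = 0.00063). The latter difference was 6.83 in a fit of the library titled female alone and 2.47 in one of the library titled male.

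Between podocytes and glomerular endothelial cells the fold was 7647 (2105 to 63335) with 2 podocyte UMIs and 8935 (3814 to 27586) with 5, and the 2 and 5 UMIs came from 3672 and 3180 podocytes. A Cyp26b1 UMI was held by 0.0545% and 0.157% of podocytes. The part of free RNA or of doublets in the Cyp26b1 counts of the other classes was not tested. The 22 mesangial UMIs of the library titled male sat in 5 cells, 12 of them in a single cell, and none was left when cells carrying markers of another class were taken out. The call of mesangial over podocyte cells was lost in that setting (log2 difference of podocyte over mesangial -1.55, against -5.68 with all cells), and its size differed by library (-2.62 and -6.24 in fits of 1 library each).

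Within the glomerular endothelial class Cyp26b1 was uneven. In the library titled female 54 of 111 cells had no UMI, 17 had 1 to 2, 26 had 3 to 9 and 14 had 10 or more, with 70 in the highest cell. In the library titled male 15 of 89 cells had none, 6 had 1 to 2, 32 had 3 to 9 and 36 had 10 or more, with 43 in the highest. The share with a UMI was 51.4% (41.7 to 61.0) and 83.1% (73.7 to 90.2), and 33.3% and 79.8% once cells were thinned to 3000 UMIs. Taking out the highest cell left 311 and 1237 CPM, so neither level hung on 1 cell.

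**Figure D3:**
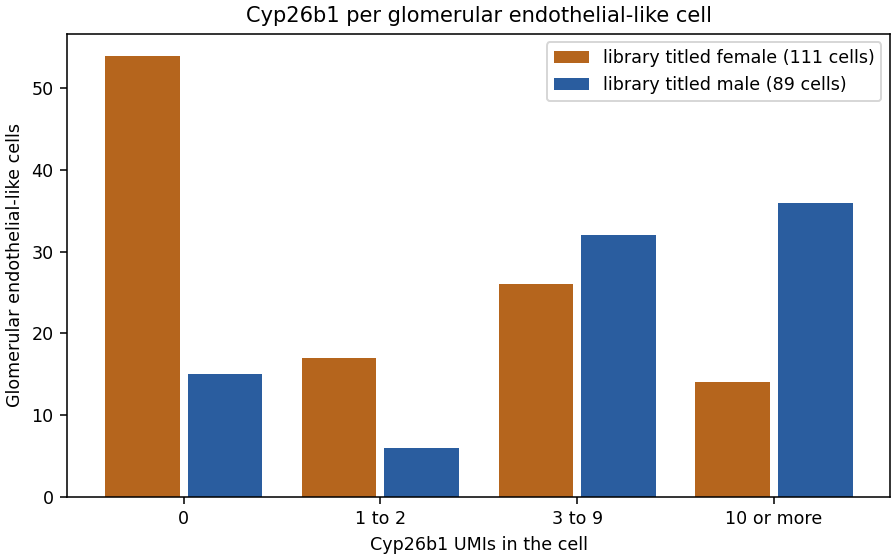
Number of glomerular endothelial-like cells (y axis) by their count of Cyp26b1 UMIs (x axis), with 1 bar per library. The library titled female has 54 of 111 cells at 0, while the one titled male has 36 of 89 cells at 10 or more.

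Parietal Cyp26b1 came from a minority of the cells, 18 of 75 and 13 of 49. These cells held few endothelial transcripts: 8 endothelial genes (Kdr, Emcn, Pecam1, Cdh5, Flt1, Egfl7, Ehd3 and Plat) summed to 213 and 260 CPM in them, to 336 and 278 CPM in parietal cells without Cyp26b1, and to 16549 and 15001 CPM in the glomerular endothelial class. They also held the synthesis enzyme, with an Aldh1a2 UMI in 14 of 18 and 10 of 13 cells, against 45 of 57 and 29 of 36 of the rest. They were deeper, with a median of 21458 and 18157 UMIs against 13262 and 14442. Among genes chosen after their values were seen, Spink1 was at 8.19 and 3.55 CPM in the Cyp26b1-holding cells and 386 and 296 CPM in the rest, where 13 of 57 and 7 of 36 cells held all of its UMIs, and the actin-binding Tagln at 3834 and 4771 against 1327 and 2648 CPM.

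Arterial endothelial-like cells (86 and 82 cells) had Cyp26b1 at 67.7 and 356 CPM, and the podocyte genes named above stood at 24.6% to 30.2% and 25.6% to 26.9% of their podocyte level there. The 2 other Cyp26 genes were low or not seen. Cyp26c1 had no UMI in any class of either library. For Cyp26a1, podocytes had 5.66 and 7.43 CPM (263 and 264 UMIs), parietal cells had 0 UMIs in both libraries, and mesangial and glomerular endothelial cells had at most 1.82 CPM. Neither passed the filter of the fit.

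Between the libraries, 2 of the members differed by more than 2-fold in a glomerular class where they reached 20 CPM. Of 17 pairs of member and glomerular class at 20 CPM or more, 3 were past 2-fold between libraries: Cyp26b1 in glomerular endothelial cells (0.262 of the level in the library titled male, counting interval 0.233 to 0.294), Rarb in the same cells (0.344, 0.20 to 0.581) and Rarb in mesangial cells (0.430, 0.286 to 0.641). Of all genes at that level, 6.48% were past 2-fold in glomerular endothelial, 2.37% in mesangial, 2.98% in parietal and 0.405% in podocyte cells. Pairs under 20 CPM were not counted, among them Aldh1a2 in mesangial cells (0.403, 0.218 to 0.731) and Cyp26b1 in the same cells (0.0284, 0.000689 to 0.176). With 1 library per title there is no test, and mouse, sex, library and cell make-up cannot be told apart. Rarb was lower in the library titled female in the Cst12-led cluster (18.3 against 34.9 CPM) and in arterial endothelial cells (9.53 against 34.2 CPM), but not in thick ascending limb cells (17.1 against 16.3 CPM). In podocytes, which hold most of the UMIs, the gap was small, at 0.862 (0.798 to 0.932) of the other library.

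Markers of other cell types moved with this difference. The 9 mesangial markers summed to 1546 CPM in the glomerular endothelial class of the library titled female, with 0 of 9 markers at 0, and to 69.8 CPM in that of the library titled male, with 3 of 9 at 0. The 9 smooth muscle or renin markers summed to 229 and 24.7 CPM, with 2 and 4 at 0, and the 6 fibroblast markers to 61.4 and 2.91 CPM, with 3 and 5 at 0. The part of these transcripts in the Cyp26b1 and Rarb differences was not tested. The 11 endothelial markers themselves were close, at 17273 and 15474 CPM, and so was Rarg in the same cells, at 155 and 159 CPM.

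**Figure D4:**
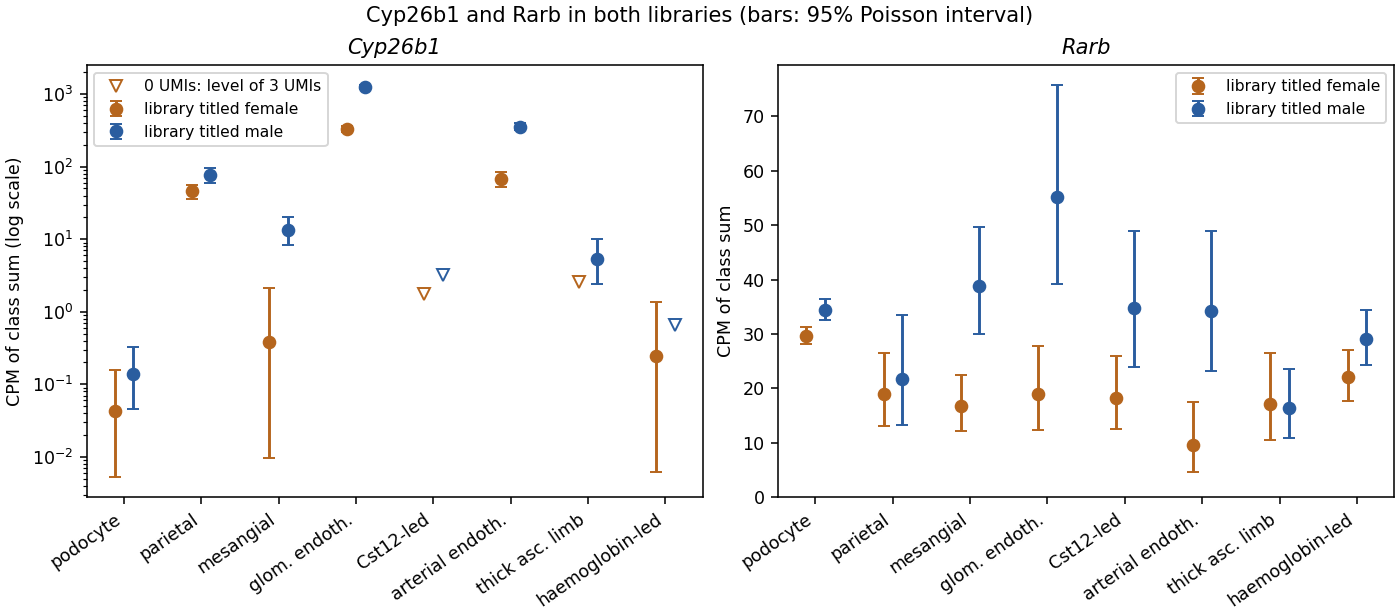
Cyp26b1 (left, CPM on a log scale) and Rarb (right, CPM on a linear scale) in 8 classes (x axis) of both libraries, with exact 95% Poisson intervals of counting error as bars and open triangles at the level of 3 UMIs where a class had none. In glomerular endothelial cells Cyp26b1 is at 329 and 1257 CPM and Rarb at 19.0 and 55.3 CPM, while the podocyte points of Rarb lie close together.

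The wider pathway was read from a list of 45 genes, of which 36 are not among the 9. Of these 36, 15 passed the filter and 10 were called in at least 1 class pair (81.3% of all genes were). Between podocyte and parietal cells 8 were called (50% of all genes), 3 higher in podocytes and 5 higher in parietal cells, with a median log2 difference of -0.04. A second list held genes that retinoic acid is known to induce, and 7 of its 11 non-member genes were tested. All 7 were called in some pair, where 81.3% of all genes were. Of them, 6 were called higher in parietal cells than in podocytes, where 27% of all genes were (median log2 difference -1.95 for podocyte over parietal). The other pairs had calls both ways. For podocyte and mesangial cells these were 2 and 3 (27.6% and 25.4% of all genes), and for podocyte and glomerular endothelial cells 3 each (26.5% each). Parietal and mesangial cells had 2 each (23.1% and 20.2%). Parietal and glomerular endothelial cells had 4 and 1 (23.5% and 21%), and mesangial and glomerular endothelial cells 4 and 2 (17.6% and 17.4%). Tgm2, a protein crosslinker, had 166 and 177 CPM in parietal, 31.4 and 94.6 in glomerular endothelial and at most 2.28 CPM in podocyte and mesangial cells. Meis2, a homeodomain factor, was highest in glomerular endothelial cells (1194 and 1276 CPM against 36.1 and 40.4 in podocytes). Rarres2, the secreted protein chemerin, was highest in mesangial cells (309 and 293 CPM) and had 42.4 and 0 CPM in glomerular endothelial cells. Rarres1 was the 1 gene of the 7 called higher in podocytes than in parietal cells. It was at 107 and 125 CPM in podocytes and at most 16.0 CPM in the 3 other classes. Meis1 was at 35.6 and 32.5 CPM in parietal cells and 4.64 and 4.59 CPM in podocytes, and Gprc5a at 28.9 and 28.2 against 12.6 and 12.2 CPM.

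**Figure D5:**
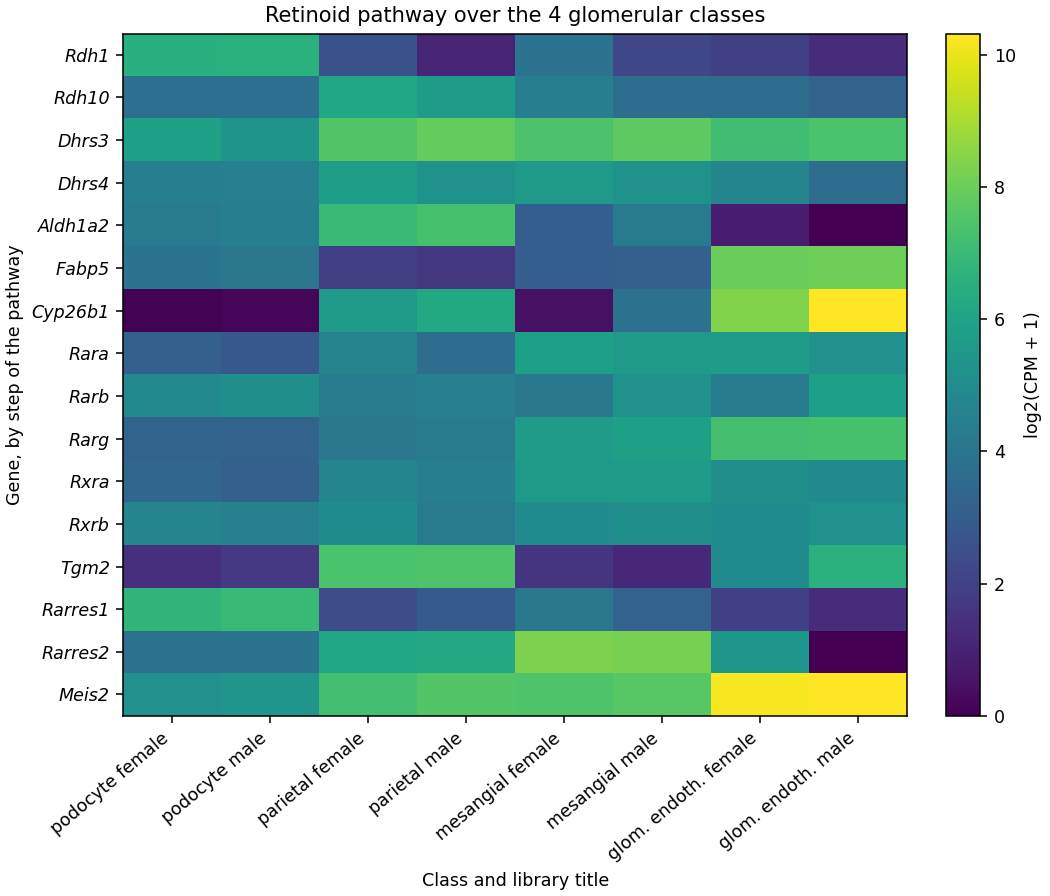
Level of 16 retinoid and retinoic acid-induced genes (y axis, ordered from retinol oxidation to targets) in the 4 glomerular classes of both libraries (x axis), with colour for log2(CPM + 1). Rdh10, Aldh1a2 and Tgm2 are brightest in parietal cells, Fabp5, Cyp26b1, Rarg and Meis2 in glomerular endothelial cells, and Rdh1 and Rarres1 in podocytes.

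For each member the genes with the most similar pattern were taken over 16 sums (8 classes in 2 libraries) from 5360 candidates, by Pearson correlation of log2(CPM + 10). The points share libraries and depth, so the values are descriptions. Aldh1a2 was closest to Sod3 (r = 0.948), Actn1 (0.940) and Crim1 (0.938), each of them highest in parietal cells. Cyp26b1 was closest to Plaur (0.959), at 72.4 and 81.5 CPM in glomerular endothelial and 15.0 and 13.0 CPM in parietal cells. Rarg was closest to Arhgap26 (0.981) and Dhrs3 to Smtn (0.931). Rarb had no close neighbour, the highest being Gpbp1 (0.804), which ranged only from 74.5 to 128 CPM over the 16 sums.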

How the data were processed

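Per the submitters' processing notes, reads were handled with Cell Ranger 6.1.2 and STAR 2.7.5a on mm10. The deposited matrices hold UMI counts per gene and barcode, which the values bear out as whole numbers of differing totals. Barcodes over 20% mitochondrial UMIs (283 and 504) or under 500 genes (112 and 145) were left out. Counts were scaled to 10000 per cell, and 2000 variable genes without the retinoid lists, 30 principal components, 20 neighbours and Leiden clustering at resolution 1.0 (scanpy 1.11.5, leidenalg 0.10.2) gave 20 clusters. A cluster was named from fixed markers (at least 3 detected, none of another class leading). Clusters led by Cst12 and Igfbp6, haemoglobin genes and cell cycle genes stayed unnamed. Scrublet scores called 3 and 1 doublets, too few to count as a working call, so no cell was removed and leaving out the 5% highest scores was an alternative. For each class of each library the UMI counts of its cells were added up, and CPM is per 1000000 UMIs of that sum, with exact Poisson intervals. The 49 parietal cells of one library fall short of the minimum of 50 set for classes, and the class was kept because it is one of the 4 asked about. Differences were fitted with edgeR 4.0.16 (TMM, filterByExpr, quasi-likelihood, library as block, 3 residual degrees of freedom, R 4.3.3), and DESeq2 1.42.0 was an alternative, as were other filters, resolutions, naming, free-RNA subtraction and thinning to 3000 UMIs. The main edgeR fit alone was tried on simulated counts, and it was scored there for podocyte against parietal cells only. Intervals on counts, ratios and shares (exact Clopper-Pearson) are at 95% and cover counting error only. For a count of 0, the limit given is 3 counts of the total. Gene positions are from GENCODE on GRCm38, and promoter sequences from RefSeq on GRCm38.p6.

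The members, lists and markers were chosen with earlier results of these data known. All 9 members were named. Of the lists, genes at 20 CPM or more in both libraries of a glomerular class, or closest relatives of a named gene, were named. Of 45 list symbols, 1 (Rbpr2) was not matched. Library is the block because each library gave 1 sum to every class. Some genes of the lists are not reported here.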

Additional observations from a re-analysis of the deposited data

Results flagged for a closer look

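Rarb had opposite orders in the libraries. The log2 ratio of its CPM in podocytes over glomerular endothelial cells was 0.644 (counting interval 0.087 to 1.264) in the library titled female and -0.683 (-1.148 to -0.177) in the one titled male, a difference of 1.327. Each title had 1 library, so the difference was not tested.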

How the results depend on the processing

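No called difference changed sign under any alternative, and 10 differences that were not called did, 7 of them of Dhrs3. Thinning every cell to 3000 UMIs, which leaves fewer counts, called fewer genes: 2743 in place of 5750 for podocyte against parietal, 3861 in place of 6093 for podocyte against mesangial, 3694 in place of 6102 for podocyte against glomerular endothelial, 2513 in place of 4977 for parietal against mesangial, 2686 in place of 5120 for parietal against glomerular endothelial, and 2565 in place of 4018 for mesangial against glomerular endothelial cells. With no filter on low counts, 8 of the 9 members were called in some pair in place of 5. That fit tested 19825 genes and called 4236 to 7073 of them per class pair. The share of all genes called in some pair was not taken for it, so the rise is not read as a result about the members. The share of glomerular endothelial cells of the library titled female with a Cyp26b1 UMI was 39.1% at resolution 0.5, where the class takes in arterial cells, and 33.3% with thinned cells. Leaving the library block out of the design changed no call of a member, and called between 3908 and 5930 genes per class pair. Fits of 1 library alone give values with no test, and those that moved a called difference by over 1.5 times stand beside it or, for Aldh1a2 against glomerular endothelial cells, are replaced by the bounds given. Resolution 0.5 gave no parietal class, so it has no parietal value. Its proximal tubule class held 85 and 71 cells, against 10 and 22 in the main clustering. Taking out mixed cells, which carried markers of another class, removed 23 of 75 and 17 of 49 parietal cells. Free-RNA subtraction was not run for shares of cells, which it does not define. The naming by marker score alone and the removal of mixed cells were chosen after seeing the data. Few or no UMIs were counted for Aldh1a1, Stra6 and Crabp2, so their levels rest on small counts. The part of depth in this was not tested.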
